A study of Mus musculus with 1012 samples.

Results

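The 10 genes described here, Fos, Fosb, Fosl1, Fosl2, Jun, Junb, Jund, Atf3, Egr1 and Egr2, encode transcription factors of the AP-1, ATF3 and EGR families. They were taken by name, with earlier results of these data known, from the 30452 genes of a table of read counts. All 10 were found there. The table covered 1012 mouse single-cell libraries. Of these, 296 were Live-seq libraries, made from a cytoplasmic biopsy drawn through a fluidic force microscopy probe while the cell stayed alive, and 162 were whole-cell libraries of IBA cells from an experiment on the effect of sampling. The others were scRNA-seq libraries of whole lysed cells.

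The cells were of 3 kinds. RAW264.7 is a mouse macrophage-like line, and most RAW cells were of its RAW-G9 subline, a clone that carries an mCherry reporter under the Tnf promoter and an EGFP-RelA fusion protein. RAW_Mock cells received no LPS, the bacterial lipopolysaccharide that activates macrophages, and RAW_LPS cells received it at 40 ng/ul, as the labels state the dose (the study's methods give a lower one). The Live-seq sums of RAW_Mock held 8, 20, 63 and 12 RAW-G9 cells, and those of RAW_LPS 39 RAW-G9 cells in 4 batches and 11 parental RAW264.7 cells in a batch of their own. The scRNA-seq sums held 16, 46 and 95 RAW_Mock and 15, 46 and 88 RAW_LPS cells, all RAW-G9. IBA is a line from the stromal vascular fraction of mouse brown fat (44 Live-seq cells and 15, 45 and 93 scRNA-seq cells). ASPCs are primary adipose stem and progenitor cells of subcutaneous fat from female C57BL/6J mice. They were taken before (ASPC_Pre, 61 and 60 cells) or days after (ASPC_Post, 37 and 35 cells) induction of adipogenesis with a chemical cocktail. In the sampling experiment IBA cells were lysed 1 h (49 cells) or 4 h (43 cells) after a biopsy, and 70 cells labelled 0 h were controls that had not been probed.

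Immediate early genes are transcribed within minutes of a stimulus without the need for new protein. FOS proteins (Fos, Fosb, Fosl1, Fosl2) dimerise with JUN proteins (Jun, Junb, Jund) to form AP-1, which binds DNA through basic leucine zipper (bZIP) domains. ATF3 is a stress-induced bZIP factor that restrains inflammatory genes in macrophages, and EGR1 and EGR2 are zinc finger factors induced by growth factors, EGR2 also being known from myeloid cells and from early adipogenesis. These genes are also known to be induced when tissue is dissociated into single cells.

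Counts were summed over the cells of a state in a batch, the batch being the label of that name, and are given as CPM, the count scaled to a total of 1000000 in the sum. Each sum held at least 3 cells, and the 30 sums with their technique and state are the samples of all comparisons. Depth per library ran from 38451 to 2671609 counts, and the median number of genes detected was 3939 in Live-seq and 8431.5 in scRNA-seq cells. In a sum, fewer cells with a transcript and less transcript per cell cannot be told apart, so the share of cells with at least 2 counts is given beside some levels. The 9 macrophage markers (Cd68, Lyz2, Csf1r and others) summed to 2388 to 30758 CPM in RAW sums and to at most 79.1 CPM in the other sums, apart from 564 CPM in scRNA-seq IBA cells of batch 9_1. The 8 mesenchymal markers (Col1a1, Sparc and others) summed to 2612 CPM or more in IBA and ASPC sums and to at most 5.63 CPM in RAW sums.

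All 10 genes lie on GRCm38 autosomes and were counted over their exons. Fos is at chr12:85473890-85477273 (plus strand), Fosb at chr7:19302696-19310051 (minus), Fosl1 at chr19:5447547-5455946 (plus) and Fosl2 at chr5:32135801-32157842 (plus). Jun (chr4:95049034-95052222, minus) and Jund (chr8:70698949-70700616, plus) have 1 exon each, and Junb is at chr8:84974484-84978718 (minus). Atf3 is at chr1:191170296-191218039 (minus), Egr1 at chr18:34859823-34864984 (plus) and Egr2 at chr10:67535475-67542188 (plus). Counting ignored strand. Fosl1 shares 57.21% of its exonic bases with Ccdc85b, Jun 7.275% with Junos, Junb 7.518% with Prdx2 and Jund 52.58% with Gm11175, which is not among the genes of the table. Each of these neighbours is on the opposite strand, so reads from those stretches cannot be assigned and the levels of these 4 genes are uncertain to that extent.

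Per kilobase of exon, Junb was the most abundant of the 10 genes in 10 of 10 combinations of state and technique. When the exonic bases shared with another gene of the table were left out of the length, Junb came first in 7 of 10, and Fosl1 in Live-seq IBA (218.4 against 186.9 CPM per kb) and ASPC_Post (178.6 against 89.4) and in scRNA-seq ASPC_Pre (122.7 against 65.6), so the order of these 2 genes depends on the bases counted. Its mean level in scRNA-seq ran from 60.7 CPM per kb in ASPC_Pre to 254.9 CPM per kb in RAW_LPS, and Live-seq gave 82.7 CPM per kb in ASPC_Post to 432.4 CPM per kb in ASPC_Pre. In the sampling experiment Fosl1 came first, at 198.1 CPM per kb in 0 h cells against 83.7 for Junb. Fosb, a FOS protein with a strong activation domain, was the lowest of the 10 in all 5 scRNA-seq states, with 0.00543 to 0.421 CPM per kb. Over the full exonic length, the genes next to Junb differed between states. In RAW cells it was Atf3 (40.0 CPM per kb in RAW_Mock and 85.9 in RAW_LPS by scRNA-seq), in IBA cells Fosl1 and Egr1 (96.8 and 65.0), in ASPC_Pre Fosl1 and Jun (52.5 and 25.8), and in ASPC_Post Fos and Fosl1 (40.1 and 36.1).

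**Figure D1:**
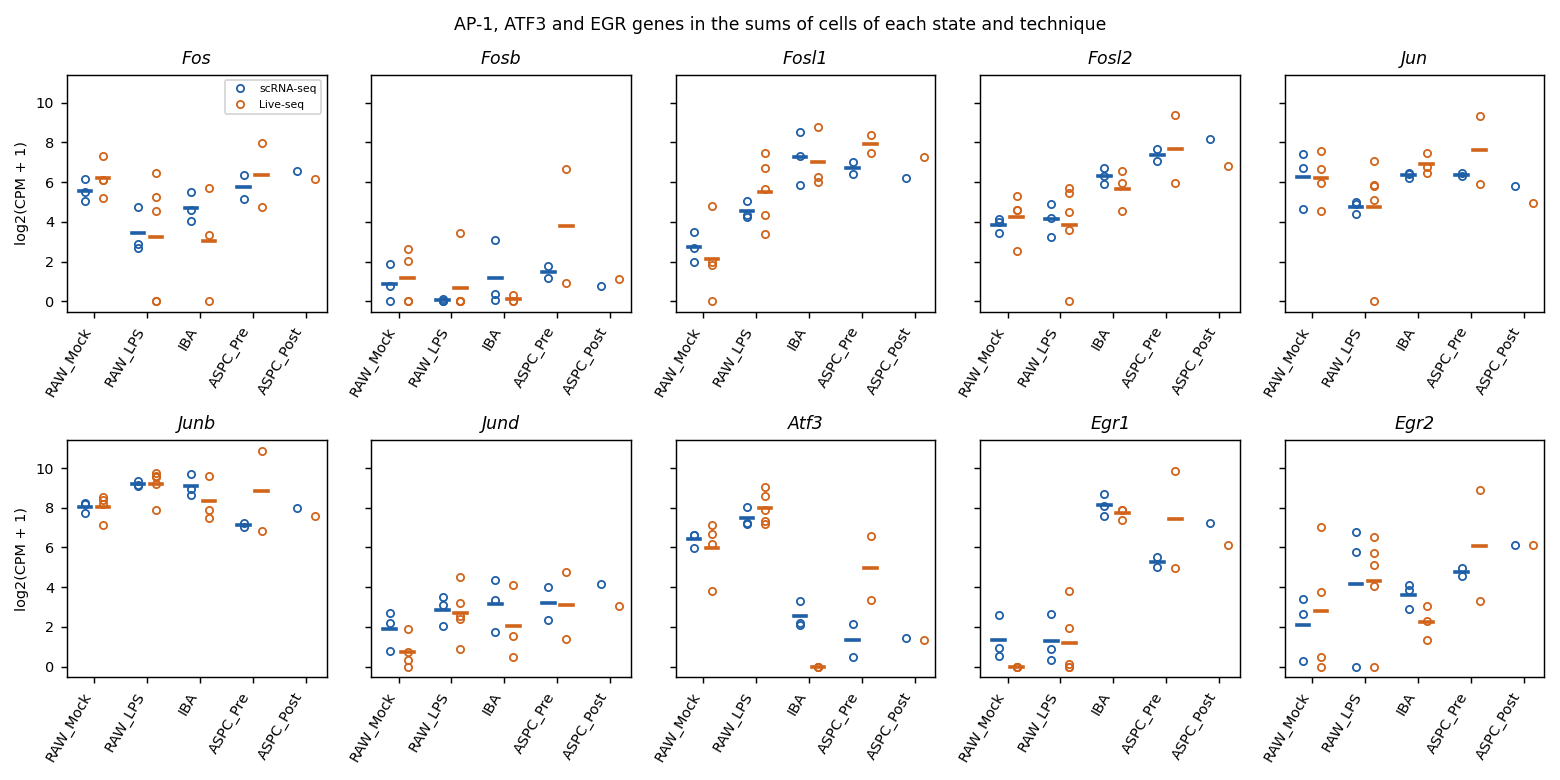
Level of each gene as log2(CPM + 1) in every sum of cells (circles), by state, for scRNA-seq (blue) and Live-seq (orange), with bars at the mean of 2 or more sums. Atf3 is high in RAW states and low in IBA and ASPC whole cells, Egr1 and Fosl2 show the opposite order, and 1 of the 2 Live-seq ASPC_Pre sums lies above the other for each gene.

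Among the pairs of states that were tested, RAW_Mock and IBA was the one with the most of the 10 genes called. RAW_LPS against IBA and RAW against ASPC cells were not tested. In scRNA-seq 6 of 9 tested genes passed the test (edgeR quasi-likelihood, Benjamini-Hochberg adjusted p under 0.05 and a log2 fold change over 1 in size), where 33.7% of all 13559 genes tested did. Fosb failed the filter on low counts. Egr1 was at 0.462, 0.939 and 4.95 CPM in the RAW_Mock sums and at 192.8, 273.3 and 408.8 CPM in the IBA sums, which did not overlap (log2 fold change -7.62 ± 0.75 SE, adjusted p = 9.81e-05). Fosl1, which encodes FRA1, was at 3.003, 5.48 and 10.2 CPM against 57.5, 160 and 373.4 CPM (-4.73 ± 0.63, adjusted p = 0.000521). Fosl2, which encodes FRA2, was at 9.93 to 16.8 CPM against 58.5 to 105.7 CPM (-2.58 ± 0.37, adjusted p = 0.000807). These 3 genes were lower in every RAW_Mock sum than in any IBA sum. The share of all genes without overlap was not computed for this comparison.

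Atf3 showed the opposite order, at 60.8, 98.3 and 99.2 CPM in RAW_Mock and 3.34, 3.66 and 8.78 CPM in IBA sums (3.99 ± 0.61, adjusted p = 0.00108). Of RAW_Mock cells 76.4% had at least 2 Atf3 counts, against 16.99% of IBA cells. The JUN genes differed less. Junb was lower in RAW_Mock (208.4 to 299.5 CPM against 392.9 to 832.4 CPM, -1.17 ± 0.28, adjusted p = 0.00907), as was Jund, the constitutively expressed member (0.704 to 5.54 CPM against 2.32 to 19.8 CPM, -1.77 ± 0.58, adjusted p = 0.0392). The Jund sums overlapped between the states. Jund was not called without the batch term, without the filter on low counts, in thinned cells or with only the states compared. In each of these 5 members were called, beside 29.83%, 17.5%, 33.79% and 32.69% of all genes. Leaving out 1 batch at a time kept Egr1, Fosl1, Fosl2 and Atf3 called, whereas Junb was lost without batch 8_8 or 9_1 and Jund without batch 9_1 or scRNA. Jun itself did not pass (0.03 ± 0.50, adjusted p = 0.975). In the IBA sum with 564 CPM of macrophage markers the Atf3 level, 3.66 CPM, lay between those of the other IBA sums.

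The Live-seq biopsies gave 2 of 9 genes called, beside 2.27% of all 13459 genes tested. These were Atf3 and Egr1, and each had no count at all in 1 of the states. Atf3 was at 12.98, 69.98, 103.1 and 141.3 CPM in the RAW_Mock sums. It had 0 counts in all 44 IBA cells (adjusted p = 0.00726). Against a floor of 3 counts over the IBA cells, its RAW_Mock level was 538.1-fold higher. This floor covers counting error only, since reads carried no molecular identifiers, and is not a lower bound on the difference between cells. Egr1 was at 163.5, 236.5 and 237.8 CPM in IBA and had 0 counts in all cells of the 4 RAW_Mock sums (adjusted p = 0.00947). Against the same kind of floor it was 2258-fold higher in IBA. Neither call was made when batch 7, 8_8 or 9_4 was left out or when only the states compared were fitted. Fosl1 was at 0 to 26.99 CPM in RAW_Mock and 62.4 to 431.5 CPM in IBA biopsies without passing (adjusted p = 0.159), although DESeq2 and the edgeR 4 fit called it.

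Other genes of the pathway were compared in the same fits. Of 28 tested immediate early genes outside the 10, 13 were lower and 1 higher in RAW_Mock than in IBA whole cells. Among the lower ones were Ctgf (-14.92), Cyr61 (-12.10), Klf4 (-7.91) and Myc (-5.76). Of 22 other bZIP genes 5 were lower and 1 higher, led by Maf (-11.03), Batf (9.31), Creb5 (-8.50) and Atf5 (-4.30). Of 18 upstream genes (serum response factor, ternary complex factors and MAP kinases) 3 were lower and 2 higher, the largest differences being Rps6ka1 (4.43) and Mapk3 (-1.85). Of 10 tested target genes 3 were lower (Timp1 at -12.31 the largest) and 2 higher (Tnf at 8.46 and Plau at 6.55). The 10 heat shock genes had 3 lower and none higher, with Hspa1a at -8.62.

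ASPC_Pre and IBA cells are both mesenchymal, and 2 of 9 genes were called between them in scRNA-seq, where 11.2% of all genes were. Junb was at 131.6 and 147.6 CPM in ASPC_Pre and 392.9 to 832.4 CPM in IBA sums (-1.73 ± 0.33, adjusted p = 0.0149). Fosl2 was at 134 and 203.1 CPM against 58.5 to 105.7 CPM (1.52 ± 0.39, adjusted p = 0.0391). Neither pair of groups overlapped, but the groups held few sums and the share of all genes without overlap was not computed. No member was called without batch 9_1, Atf3 and Egr2 were called in place of both genes without batch 8_8, Fosl2 was lost without batch scRNA, and Fosl2 was not called without the batch term. Egr1 was at 31.2 and 44.7 CPM in ASPC_Pre against 192.8 to 408.8 CPM in IBA and missed the threshold (-2.24 ± 0.66, adjusted p = 0.0577), but it was called by DESeq2, without the filter, with the edgeR 4 fit, in thinned cells, with only the states compared and without batch scRNA. In Live-seq none of the 9 was called by edgeR, beside 0.0223% of all genes (3 genes, with 3.93% of genes at an unadjusted p under 0.05). DESeq2 called Atf3 and Egr2, beside 2.051% of all genes. Among other lists in scRNA-seq, 6 of 28 immediate early genes were higher and 3 lower in ASPC_Pre (Dusp2 -7.45, Klf4 4.26, Nr4a1 3.92, Ctgf 2.55), 1 of 22 bZIP genes was higher (Maff, 3.93), 4 of 10 targets were higher (Mmp3 15.86, Hmox1 3.20, Plau 2.80, Timp1 1.35), no upstream gene was called and 2 of 10 heat shock genes were lower (Hspe1 -1.12, Hspd1 -1.11).

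After LPS, Fos was lower and Fosl1, Jund and Atf3 were higher than in mock-treated cells in each of the 7 batches that held both states. These were 3 batches of scRNA-seq and 4 of Live-seq. Some of these directions were within counting error, as the interval of the LPS to mock ratio from the counts included 1. This held for Fos in scRNA-seq batch 8_8 (ratio 0.788, 0.607 to 1.021). It also held for Jund in Live-seq batches 8_8 (1.55, 0.542 to 3.62) and 9_4 (0.828 against 0 CPM, lower limit 0.611). For Fosl1 and Atf3 the interval lay above 1 in each batch. These intervals cover counting error only and not the spread between cells. The study's methods place the LPS biopsies hours, not minutes, after LPS was added, and give no such time for the whole cells. Of all genes tested, 1.68% were higher and 4.06% lower in all 7 batches, beside which 3 and 1 of 9 members are to be read. EdgeR called none of the 9 tested genes in either technique. DESeq2 called Fos, Fosl1, Jun, Junb and Egr2 in scRNA-seq and Fosl1 in Live-seq, beside 5.244% and 4.777% of all genes. EdgeR called Egr2 and Junb in scRNA-seq with its edgeR 4 fit, in thinned cells and with only the states compared, beside 3.031%, 3.184% and 4.36%.

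Fos, the founding AP-1 subunit, was at 5.36, 6.27 and 25.7 CPM in the scRNA-seq RAW_LPS sums and 32.6, 43.7 and 71.6 CPM in RAW_Mock. The groups did not overlap (log2 fold change -2.08 ± 0.74, adjusted p = 0.239), and 14.8% of LPS cells had at least 2 Fos counts against 56.7% of mock cells. In batches 9_1 and scRNA the mock level was 8.16 and 11.4 times the LPS level, and in batch 8_8 it was 1.27 times. In Live-seq the same order held within each of the 4 batches, with 0 against 36.5 and 159.1 CPM in batches 6 and 8_8, 37.5 against 68.3 CPM in batch 7 and 22.4 against 67.4 CPM in batch 9_4. Sums from different batches overlapped there (0 to 87.6 CPM against 36.5 to 159.1 CPM).

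Atf3 was at 145.3, 151.4 and 258.7 CPM after LPS and 60.8, 98.3 and 99.2 CPM in mock whole cells (1.19 ± 0.55, adjusted p = 0.370). In biopsies it was at 146.1, 159.3, 234.2, 379.9 and 521.2 CPM after LPS and 12.98, 69.98, 103.1 and 141.3 CPM in mock sums (2.41 ± 0.91, adjusted p = 1). Atf3 was the only member whose Live-seq groups did not overlap. The highest of these values came from 4 cells of batch 6, of which 1 cell held all Atf3 counts. The share of biopsies with at least 2 counts was 62% after LPS and 18.4% without.

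Fosl1 was at 18.2, 19.0 and 31.7 CPM after LPS against 3.003, 5.48 and 10.2 CPM in whole cells (1.88 ± 0.56, adjusted p = 0.163), and Junb at 543.1, 567.9 and 648.5 CPM against 208.4, 290.8 and 299.5 CPM (1.30 ± 0.27, adjusted p = 0.0666). Neither overlapped between groups. Every LPS sum lay above every mock sum for Fosl1, Junb and Atf3, beside 6.05% of all genes, and below for Fos, beside 11.5%. For Live-seq the corresponding counts were 1 of 9 (Atf3) beside 0.691% and 0 of 9 beside 1.37%. In biopsies Fosl1 was at 9.53 to 177 CPM after LPS and 0 to 26.99 CPM without, and Junb at 236.1 to 856.7 CPM after LPS, with mock sums of 137.3 to 375.05 CPM that overlapped them. Junb was lower after LPS in batch 6 (236.1 against 285.8 CPM) and higher in the other 3 Live-seq batches.

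Jun and Egr2 differed between batches. Jun was at 28.4 and 20 CPM after LPS against 170.5 and 102.4 CPM in batches 9_1 and scRNA, but at 30.8 against 24.3 CPM in batch 8_8 (all batches -1.61 ± 0.52, adjusted p = 0.194). Egr2 was at 52.9 and 110 CPM after LPS against 5.21 and 9.59 CPM in batches 9_1 and scRNA, and had 0 counts after LPS and 0.231 CPM in mock cells of batch 8_8 (3.26 ± 1.10, adjusted p = 0.209). In each of the pairs the 8_8 sums held 15 or 16 cells and the other sums 46 to 95. Jund was at 3.06 to 10.2 CPM against 0.704 to 5.54 CPM (1.49 ± 0.58, adjusted p = 0.279). Egr1 stayed at 5.25 CPM or less in all 6 scRNA-seq RAW sums, and Fosl2 at 8.52 to 29.1 CPM (0.40 ± 0.36, adjusted p = 0.704).

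In scRNA-seq edgeR called 0 of 9 members, beside 1.23% of all 13559 genes, with 7 of 9 fold changes above 0 and a median of 1.19 against -0.01 over all genes. DESeq2 called 5 of them, Fos, Fosl1, Egr2, Jun and Junb, and 5.244% of all genes. In Live-seq edgeR called 0 of 9 beside 0.0% of 13459 genes, although 3.997% of genes had an unadjusted p under 0.05. DESeq2 called Fosl1 and 4.777% of all genes. The median Live-seq fold change was 1.40 over the members and -0.48 over all genes.

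**Figure D2:**
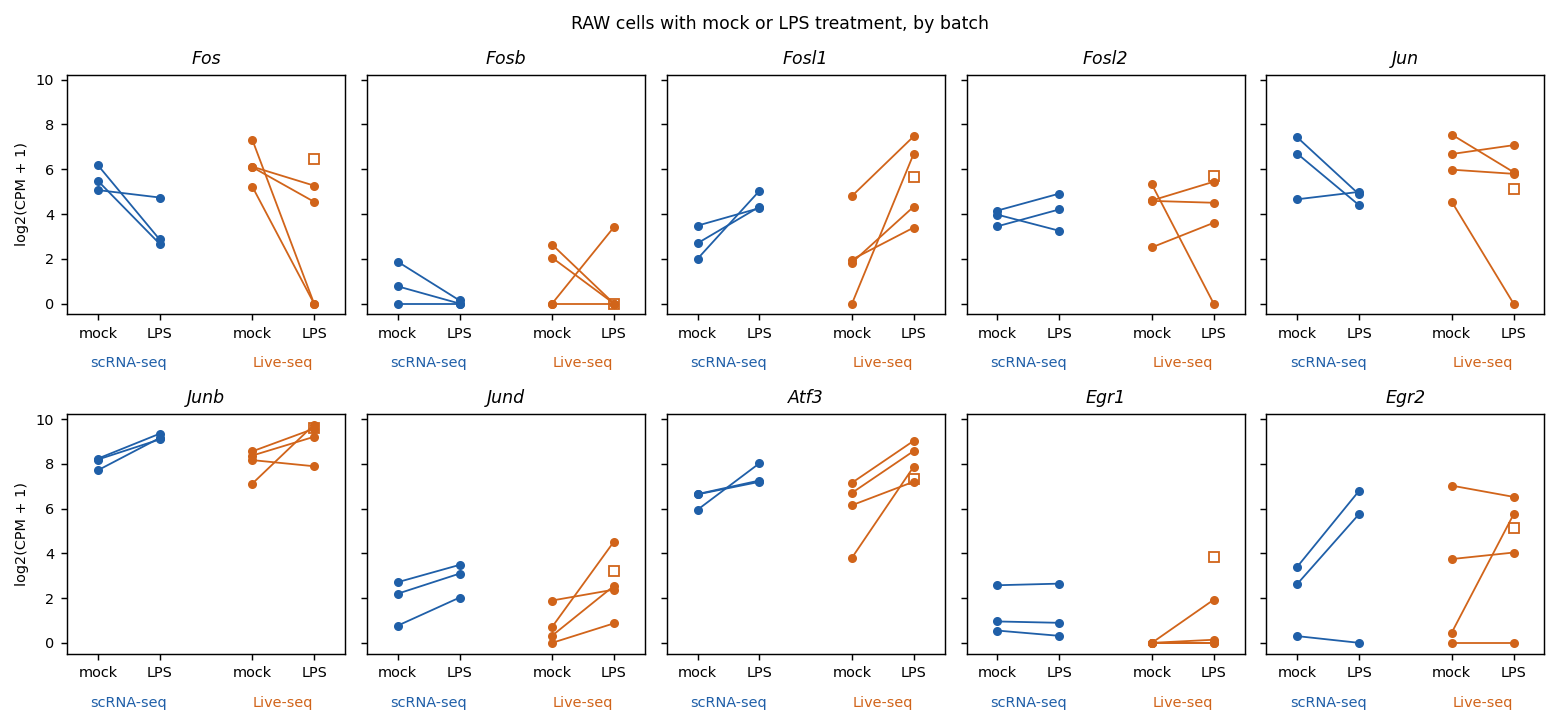
Level of each gene as log2(CPM + 1) in mock-treated and LPS-treated RAW cells, with a line for each batch that held both (3 scRNA-seq batches in blue, 4 Live-seq batches in orange) and an open square for the Live-seq LPS batch without a mock sum. In all 7 batches the LPS sum lies below the mock sum for Fos and above it for Fosl1, Jund and Atf3. The difference is within counting error for Fos in scRNA-seq batch 8_8 and for Jund in Live-seq batches 8_8 and 9_4.

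Around these genes, 4 of 28 other immediate early genes were called higher after LPS in scRNA-seq, the nuclear receptor Nr4a3 (7.13), Gadd45b (2.93), Ppp1r15a (2.08) and Btg1 (1.58). Of 22 other bZIP genes, Maff (3.94) and Batf (2.43) were called higher, and of 10 targets Nab2 (1.66), a corepressor that EGR factors induce. No upstream gene (of 18) or heat shock gene (of 10) was called, and no list had a gene called lower. In Live-seq none of the genes of these lists was called.

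Whole cells and biopsies of the same state were compared next, over all 27 sums. None of the 9 members was called by edgeR in RAW_Mock, RAW_LPS, IBA or ASPC_Pre, beside 0.0% of all 13559 genes in each (4.558%, 8.334%, 4.174% and 1.475% of genes at an unadjusted p under 0.05). The difference between the LPS effects of the techniques was called for 0 of 9 members, beside 0.0% of all genes (4.3% at an unadjusted p under 0.05), with 1.239% of genes and no member called by DESeq2. DESeq2 called Atf3 in IBA and in ASPC_Pre, and 0.9588%, 1.881%, 1.04% and 0.5236% of genes in the 4 states. In IBA cells Atf3 had 3.34 to 8.78 CPM in whole cells and 0 counts in biopsies (adjusted p = 0.191). Against a floor of 3 counts over the biopsies, which covers counting error only, whole cells were 44.1-fold higher. Egr1 in RAW_Mock had 0.462 to 4.95 CPM in whole cells and 0 counts in biopsies (adjusted p = 0.644). Against the same kind of floor, whole cells were 32.7-fold higher.

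In ASPC_Pre 9 of 9 members had a lower level in whole cells than in biopsies, with a median log2 difference of -2.19 against 0.29 over all genes. In RAW_LPS 8 of 9 had a lower level in whole cells (median -0.59 against 0.25). The biopsies of batch 8_8 held the high values. The summed level of the 10 genes was 5381 CPM in those 18 cells and 486.3 CPM in the 43 biopsies of batch 9_4, against 728.6 and 538.8 CPM in the whole-cell sums. Per cell the median was 5613 CPM in batch 8_8 and 335.1 CPM in batch 9_4, and 14 of 18 against 4 of 43 cells exceeded 1000 CPM. Leaving out the cell with the most counts gave 5259 CPM for batch 8_8.

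Batch 8_8 held ASPC_Pre cells of both techniques, which allowed a comparison within it, without replicates. Of the 10 genes, 9 were over 2-fold higher in the biopsies than in the whole cells, beside 19.4% of the 8606 genes compared. Atf3 was at 3.40 CPM in whole cells and 94.8 CPM in biopsies, a ratio of 27.8 with a 95% counting interval of 16.4 to 51.4. Few cells held these counts. Over all batches, 5 of 61 ASPC_Pre biopsies and 4 of 60 whole cells had at least 2 Atf3 counts. Egr1 was at 44.7 and 920 CPM (20.6, 17.7 to 23.98) and Egr2 at 22.9 and 466.2 CPM (20.4, 16.6 to 25.4). These intervals, like all those below, cover counting error only, since reads carried no molecular identifiers. The high sums did not come with more cells detected for Egr1, with at least 2 counts in 66.7% of biopsies and 68.8% of whole cells. Fosb stood at 2.43 against 100.8 CPM (ratio 41.4), but the 10 whole-cell counts came from 1 cell and 72.03% of the biopsy counts from another.

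Among the JUN genes the ratio ranged from Junb (147.6 against 1877 CPM, 12.7) to Jun (78.8 against 641.8 CPM, 8.15) and Jund (15.3 against 26.4 CPM, 1.73, with a 95% counting interval of 1.25 to 2.40). The other FOS genes, Fosl2, Fos and Fosl1, had ratios of 3.33, 2.99 and 2.58. Without the cell with the most counts in each group, Fos was at a ratio of 1.51. In the other biopsies of batch 8_8 the summed level was 736.7 CPM against 345.2 CPM in whole cells of the batch for RAW_Mock, 1181 against 942.6 CPM for RAW_LPS and 1066 against 1498 CPM for IBA. In RAW_Mock 6 genes were over 2-fold higher in biopsies, among them Egr2 (53.6, with 1 count in whole cells and a 95% counting interval of 9.53 to 2128), Fosl1 (8.99), Fos (4.89) and Fosb (94 counts against 0). In RAW_LPS these were Fosl1 (5.58), Egr2 (22 counts against 0) and Egr1 (4 counts against 1), while Fos had no count in biopsies (an upper bound of 0.102 for the ratio). In IBA only Jun was (2.38), and Fos and Atf3 had no count in the biopsies. The share of all genes over 2-fold higher was not computed for these states.

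Of 30 other immediate early genes with counts, 22 were over 2-fold higher in these 18 biopsies than in the whole cells and 3 over 2-fold lower. Egr3, Egr4 and Nr4a3 were at 42.2, 51.1 and 11.7 CPM in the biopsies and had no count in the whole cells, and Ier5l was at 12.9 CPM in the whole cells with no count in the biopsies. Nr4a1, an orphan nuclear receptor named here after its values were seen, was at 1498 against 23.6 CPM (63.5). Of the upstream genes, 2 of 18 with counts were over 2-fold higher and 8 over 2-fold lower, of the targets 0 and 6 of 10, and of the other bZIP genes 5 and 6 of 20. The 10 heat shock genes summed to 6008 CPM in the biopsies and 7031 CPM in the whole cells. The same biopsies had a median of 1635 genes detected, against 6057 in batch 9_4 and 7945.5 in the whole cells of batch 8_8. Smooth muscle genes (4 of 4 with counts in the biopsies) summed to 28097 CPM against 7383 CPM in the biopsies of batch 9_4 and 7022 CPM in the whole cells of batch 8_8, mesenchymal markers (8 of 8) to 8985 against 11157 and 11933 CPM, and adipocyte markers, of which 1 of 8 had counts, to 0.4989 against 116.01 and 572.98 CPM. The part of depth and of these marker differences in the result was not tested.

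**Figure D3:**
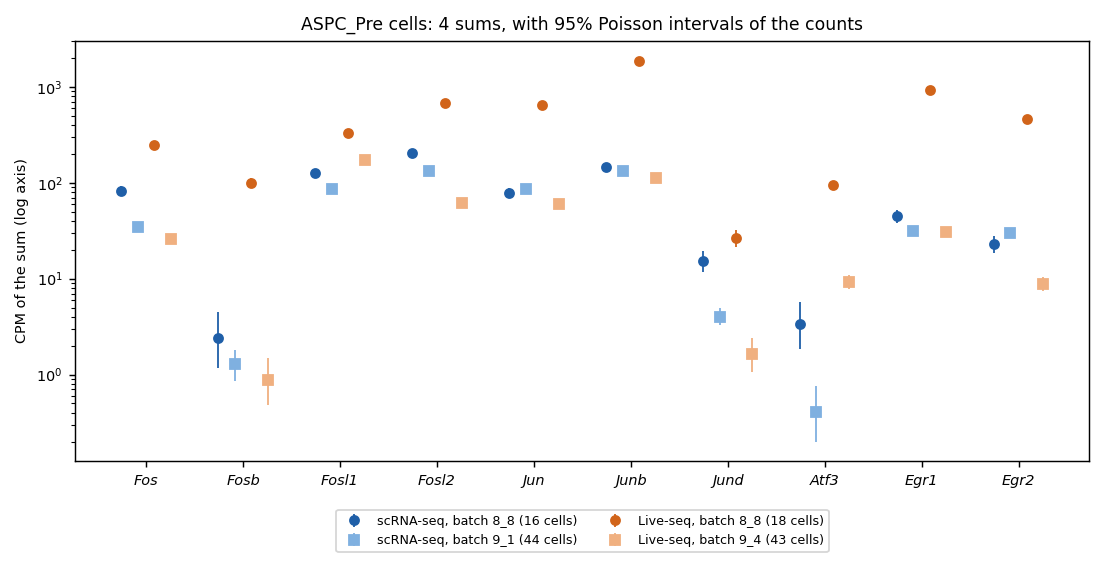
CPM of each gene (log axis) in the 4 sums of ASPC_Pre cells with 95% Poisson intervals of the counts, for whole cells (blue) and biopsies (orange). The Live-seq sum of batch 8_8 is the highest of the 4 for each of the 10 genes, and most clearly for Fosb, Atf3, Egr1 and Egr2.

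Adipogenic induction was measured in 1 batch of each technique, so that ratios of ASPC_Post to ASPC_Pre carry counting intervals only. Over 2-fold higher after induction in both techniques were 4 of the 10 genes, Fos, Jund, Egr1 and Egr2. The share of all genes over 2-fold higher in both was not computed, and the shares below are for each technique alone. In scRNA-seq 6 of 10 were over 2-fold higher and 0 over 2-fold lower, beside 16.9% and 13.7% of all genes. In Live-seq 4 were higher and 1 lower, beside 15.8% and 20.5%.

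Egr1 was at 31.2 CPM before and 151.5 CPM after induction in whole cells, a ratio of 4.85 (4.48 to 5.27), and at 30.6 and 68.7 CPM in biopsies, a ratio of 2.25 (2.02 to 2.51). Egr2 was at 30.01 and 68.7 CPM (2.29) and at 8.80 and 69.3 CPM (7.88, 6.60 to 9.46). The share of biopsies with at least 2 Egr2 counts was 16.3% before in that batch and 62.2% after. Jund was at 4.03 and 16.6 CPM (4.12) and at 1.63 and 7.19 CPM (4.401). Fos was at 34.8 and 94.4 CPM (2.71) and at 26.2 and 70.3 CPM (2.69), and 45.5% of whole cells had at least 2 Fos counts before induction and 80.0% after.

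Junb and Fosl2 were higher by less in at least 1 technique (Junb 1.89 and 1.69, Fosl2 2.17 and 1.83). Jun was lower in both, at 86.04 and 55 CPM in whole cells (0.639) and 60.05 and 30.3 CPM in biopsies (0.504). Fosl1 was within 2-fold, with ratios of 0.857 and 0.892. Atf3 had opposite directions, at 0.411 and 1.74 CPM in whole cells (4.24, 2.02 to 9.72, from 10 and 30 counts) and at 9.31 and 1.56 CPM in biopsies (0.168, 0.105 to 0.258). Of the Atf3 counts in biopsies, 94.6% before and 92% after came from 1 cell. Fosb had 12 to 31 counts in each of these sums. Of the 37 ASPC_Post biopsies, 13 came from cells not sampled before, and leaving out the rest kept the number of genes over 2-fold higher in both techniques at 4.

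Genes of the other lists lay on both sides. Of 28 other immediate early genes with counts in whole cells 8 were over 2-fold higher and 3 lower, with Btg1 at 17.8 and 105.6 CPM, Trib1 at 9.46 and 48.8 CPM, Nr4a3 at 1.85 and 9.52 CPM and Dusp4 at 145.98 and 37.8 CPM (0.259). Of 22 other bZIP genes 3 were higher and 2 lower, the most abundant being Cebpb, an early factor of adipogenesis, at 14.2 and 74.3 CPM. Of 12 targets 2 were higher and 5 lower. Among these Mmp13 was at 4.93 CPM before and had no count after, Plaur was at 44.4 and 0.755 CPM and Il6 at 17.4 and 0.523 CPM. Of 18 upstream genes 4 were higher, led by Mapk14 at 21.5 and 53.3 CPM, and of 10 heat shock genes none was past 2-fold. In Live-seq the corresponding counts were 6 higher and 4 lower of 29 immediate early genes, 4 and 2 of 20 bZIP genes, 2 and 4 of 10 targets, 2 and 4 of 18 upstream genes and 1 and 1 of 10 heat shock genes. There Cebpb was at 8.05 CPM before and 11.8 CPM after induction (1.46), within 2-fold, and Map3k8 was on opposite sides (2.25 in scRNA-seq and 0.376 in Live-seq). Smooth muscle genes were over 2-fold lower after induction (4 of 4 in both techniques), at sums of 4334 and 320 CPM in whole cells and 7383 and 538.7 CPM in biopsies. The part of these cells in the result was not tested.

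**Figure D4:**
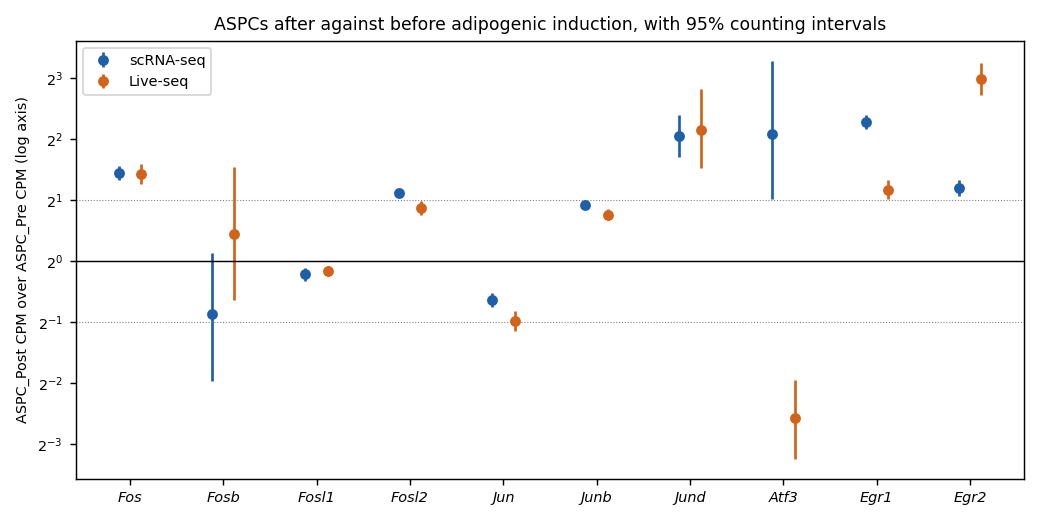
Ratio of the ASPC_Post to the ASPC_Pre level of each gene (log axis) with 95% counting intervals, for scRNA-seq (blue) and Live-seq (orange), with a line at 1 and dotted lines at 2 and 0.5. Fos, Jund, Egr1 and Egr2 lie above 2 in both techniques, and Atf3 lies on opposite sides of 1.

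In IBA cells lysed after a biopsy, Atf3, Fosb, Fos and Egr2 were over 2-fold higher at 1 h than in the 0 h controls, 4 of 10 genes beside 6.20% of all genes, and 0 of 10 were over 2-fold lower, beside 9.26%. All 3 groups were in 1 batch, so there was no replicate. Atf3 was at 4.02 CPM in the controls and 33.7 CPM at 1 h, a ratio of 8.38 (6.78 to 10.5). Fosb was at 3.07 and 19.1 CPM (6.20, 4.84 to 8.04), Fos at 12.8 and 51.9 CPM (4.05, 3.57 to 4.60) and Egr2 at 8.44 and 20.02 CPM (2.37, 2.00 to 2.81). In cells thinned to 50000 counts the share with at least 2 counts was 2.94% and 22.4% for Atf3, 4.41% and 14.3% for Fosb, 7.35% and 22.4% for Fos and 14.7% and 20.4% for Egr2.

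The other 6 genes stayed within 2-fold at 1 h. Egr1 was at 153.1 and 192.2 CPM (1.26), Junb at 192.6 and 244.97 CPM (1.27) and Fosl1 at 402.8 and 374.8 CPM (0.930). Fosl2, Jun and Jund had ratios of 0.645, 0.675 and 0.602. The 4 genes over 2-fold higher had the lowest levels per kilobase of the 10 in the controls (0.492 to 5.45 CPM per kb).

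At 4 h Atf3 was still at 20.4 CPM (5.07, 4.03 to 6.42) and Fosb at 7.61 CPM (2.48, 1.84 to 3.35), which made 2 of 10 over 2-fold higher beside 6.33% of all genes. Egr1 at 58.1 CPM (0.380), Jun at 19.3 CPM (0.386) and Egr2 at 2.14 CPM (0.253) were over 2-fold lower, 3 of 10 beside 10.9%. Fosl2 was at 38.04 CPM (0.501). Single cells decided 2 of the values at 4 h. Fos was at 9.12 CPM (0.711), with 91.7% of the counts from 1 cell, and at a ratio of 0.0998 without the cell with the most counts in each group, and Fosb was at 1.26 in the same way.

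Of the other lists, 3 of 29 immediate early genes were over 2-fold higher at 1 h and 2 over 2-fold lower. Ier5l was at 21.8 CPM in the controls and 1.75 CPM at 1 h, Klf2 at 8.44 and 22.7 CPM, Gadd45b at 86.9 and 211.8 CPM and Ppp1r15a at 40.1 and 92.2 CPM. At 4 h 4 were higher and 11 lower. Egr3 was at 0.410 CPM in the controls with no count at 4 h, Ier5l was at 2.70 CPM, Dusp2 at 1.80 and 0.440 CPM and Ier2 at 181 and 47.3 CPM. Of 18 upstream genes Map3k8, a kinase of the ERK pathway, was the only one past 2-fold at 1 h, at 0.656, 7.29 and 7.48 CPM at 0, 1 and 4 h. The 10 heat shock genes summed to 11080, 10890 and 11864 CPM. Smooth muscle genes summed to 833.8, 2826 and 1178 CPM, of which Acta2 made 813.6 CPM in the controls and 2795 CPM at 1 h, and the part of this difference in the result was not tested.

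**Figure D5:**
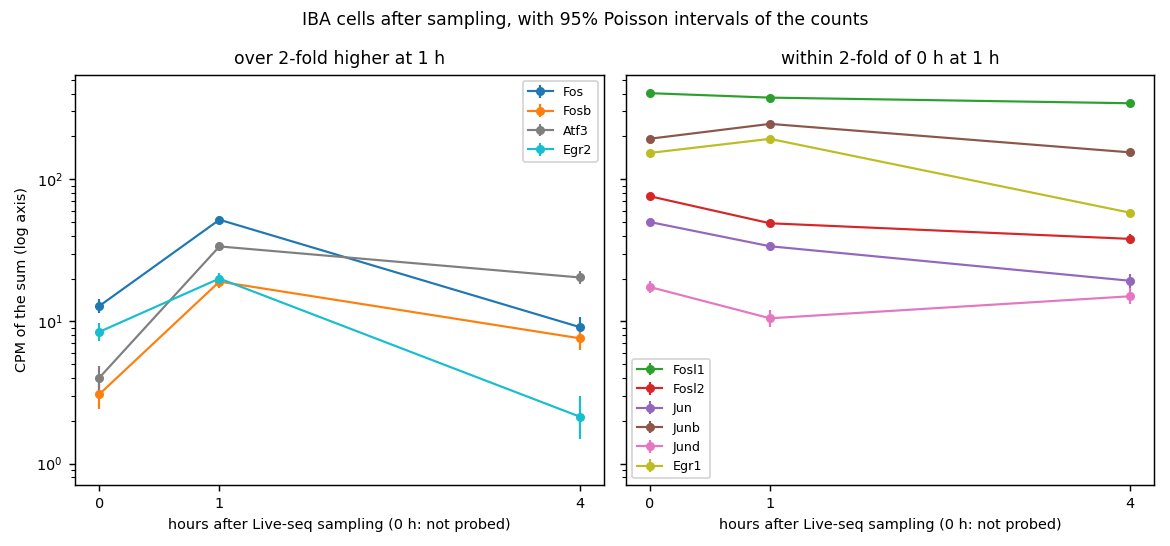
CPM of each gene (log axis) in IBA cells lysed 0, 1 and 4 h after Live-seq sampling (0 h cells were not probed), with 95% Poisson intervals of the counts. The 4 genes on the left (Fos, Fosb, Atf3, Egr2) are highest at 1 h, and Egr1 and Jun on the right are lowest at 4 h.

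RefSeq start sites on GRCm38.p6 were found for 8 of the 10 genes (Fosl1 and Egr1 had no entry). The 150 bases before a start of the 4 genes that were over 2-fold higher at 1 h are shown because such genes are known to be induced through CREB/ATF and serum response factor sites. Each is written 5′ to 3′ on the strand of its gene. Capitals mark the core of the cyclic AMP response element, CGTCA on either strand (TGACG read on the other), and a CArG box, the serum response factor motif.
Fos, chr12:85473740-85473889, plus strand: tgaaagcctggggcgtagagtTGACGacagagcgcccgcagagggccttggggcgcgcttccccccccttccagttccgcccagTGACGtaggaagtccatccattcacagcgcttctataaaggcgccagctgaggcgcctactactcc
Fosb, chr7:19310046-19310195, minus strand: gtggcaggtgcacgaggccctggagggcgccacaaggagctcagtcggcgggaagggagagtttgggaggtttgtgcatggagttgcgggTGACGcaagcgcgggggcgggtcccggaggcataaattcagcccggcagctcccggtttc
Atf3, chr1:191183334-191183483, minus strand: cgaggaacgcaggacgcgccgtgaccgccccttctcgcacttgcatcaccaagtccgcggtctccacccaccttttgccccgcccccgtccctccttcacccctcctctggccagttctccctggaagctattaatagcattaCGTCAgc
Egr2, chr10:67537719-67537868, plus strand: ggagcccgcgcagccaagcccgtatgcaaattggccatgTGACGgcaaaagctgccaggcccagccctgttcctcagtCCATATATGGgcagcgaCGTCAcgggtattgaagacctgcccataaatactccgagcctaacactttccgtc

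The core was present in each of the 4 stretches, in 2 copies in Fos and Egr2 and 1 copy in Fosb and Atf3, and of these the Egr2 stretch held a CArG box. Egr2 has 5 start sites in RefSeq, and the one shown is the first of those that hold the most CArG boxes and cores, chosen for that. In the 250 bases before a start, 3 of the 5 Egr2 windows held the core and 4 a CArG box, so the presence of the core in Egr2 depends on the start. In the 250 bases before a start, 17.8% of 32851 RefSeq windows held the core and 1.47% a CArG box. Junb, which was within 2-fold at 1 h, also had a core within the 250 bases. Bases further than 250 before a start were not searched, so a stretch without a CArG box does not mean that the gene has none. A match of letters is a description and not a site.

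Cells biopsied more than once gave single values before and after a change of state. In 4 RAW cells sampled before and after LPS, Atf3 was at 0 CPM before in all 4 and at 141.4, 220.6, 535.4 and 546.7 CPM after. Junb was higher after in all 4 (0, 0, 0 and 206.2 CPM before, 445.6 to 1320 CPM after), and Fosl1 was higher in 3 of 4. Fos, with 123 and 301.7 CPM before in 2 of the cells, was at 0 CPM after in all 4. For 1 of the 4 RAW cells the LPS library was labelled as the first extraction, and cells were ordered here by state.

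In 9 ASPCs labelled as sampled before and after induction, Egr2 was higher after in 4 and lower in none. In those 4 cells it was at 9.10, 28.5, 58.8 and 78.8 CPM after, and only 1 of the 4 had a count before (16.9 CPM). Fosl1 was lower after in 7 of 9 (median 125 and 31.0 CPM) and Junb in 7 of 9 (median 129 and 49.2 CPM), although the Junb sum over all cells of the batch was higher after induction. Atf3 had no count in any of these 18 biopsies. The pairs of ASPC biopsies were taken from the labels alone. The study reports fewer such pairs with matching barcodes, so not every pair used here is known to come from the same cell.

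The 10 genes did not vary as a block over the 12 scRNA-seq sums, which share batches and states. Pearson correlations of log2(CPM + 1) between pairs of them ran from -0.90 (Fosl2 and Atf3) to 0.85 (Fosl1 and Egr1), and Fos and Jun had 0.59. The 3 genes with the highest correlation were taken for each member. Atf3 was closest to Slc16a10 (0.987), Tnip3 (0.983) and Gm14681 (0.980), Egr1 to Myo1h (0.979), Arhgap31 (0.969) and Wasl (0.968), Fosl2 to Itsn1 (0.986), Ptprn (0.969) and Twist1 (0.967), and Fosl1 to Myof (0.958), Tbc1d8b (0.954) and Acy1 (0.946). Jund was closest to Fbxo11 (0.928), 9530082P21Rik (0.899) and Sec24a (0.880), Egr2 to Zfp719 (0.907), Zfp189 (0.896) and D130040H23Rik (0.891), and Junb to Slc30a6 (0.897), Xylt2 (0.891) and Appbp2 (0.881). Fos reached 0.843 (Tmem35b), 0.820 (Arhgef11) and 0.814 (Rab3a), Jun 0.863 (2900052L18Rik), 0.855 (Dpysl2) and 0.831 (Arhgap18), and Fosb 0.827 (Mier3), 0.817 (Hmga2) and 0.817 (Tirap).

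Per cell, the median number of the 10 genes with at least 2 counts was 3 to 7 in whole-cell sums and 1 to 5 in biopsy sums. Cells in which Fos, Jun and Egr1 were all detected numbered 31 of 93 in IBA whole cells of batch scRNA, 17 of 44 in ASPC_Pre whole cells of batch 9_1 and 3 of 95 in RAW_Mock whole cells of batch scRNA.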

How the data were processed

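The deposited table held read counts per gene for each library, which the authors made with STAR 2.6.1c on mm10/GRCm38, keeping uniquely mapped reads of 1 read end, and HTSeq without regard to strand, after base calling with bcl2fastq 2.19.1. The counts were not normalised. Here counts were summed over the cells of each technique, state and batch label (at least 3 cells). Left out were 20 genes that the study treats as background, 92 ribosomal protein genes, and 1 parental RAW_Mock biopsy that formed no sum. Kept counts had a median of 358714.5 per Live-seq, 360189 per scRNA-seq and 387238 per post-sampling library. Cells were thinned to 50000 counts for shares at equal depth.

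Genes with at least 2 counts in 15% of the cells of a scRNA-seq state that also passed filterByExpr were tested with edgeR 4.0.16 (quasi-likelihood, TMM) in R 4.3.3, with Benjamini-Hochberg adjustment over all genes. A call needed an adjusted p under 0.05 and a log2 fold change over 1 in size, and the SE is the fold change divided by the root of F. Fits within a technique held state and batch, and fits between techniques held the groups alone. Within a technique, p-values measure the spread between sums that is left after state and batch are fitted, shared over all states. Between techniques they measure the spread between batches. Where a comparison had 1 batch, ratios carry exact 95% intervals from the counts. A count of 0 is set at a floor of 3 counts over the group. Both cover counting error only. States of a batch share its label, which is taken as the pairing; deviations of same-batch RAW_Mock and RAW_LPS sums correlated at 0.29 to 0.52 in scRNA-seq and 0.03 to 0.23 in Live-seq.

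DESeq2 1.42.0, other size factors, no filter, all genes kept, the edgeR 4 fit, thinning, the fit without batch, only the states compared, and leaving out each batch were alternatives. The comparison of ASPC_Pre techniques within batch 8_8 and the counts of groups that do not overlap were added after the data were seen. The length without bases shared with other genes was also added then. The fits were checked on simulated data. In simulated LPS designs of these sizes most of the changed genes were not called, so a count of 0 calls carries little weight. Python 3.11.15, numpy 2.4.6, pandas 2.3.3, scipy 1.17.1 and matplotlib 3.10.9 were used. The 10 genes were named in every comparison, with up to 4 called genes of largest change of each other list and the 3 genes most correlated with each member. Members and lists were chosen with earlier results of these data known. Promoter sequences are from RefSeq (GRCm38.p6) and gene positions from the GRCm38 annotation.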

Additional observations from a re-analysis of the deposited data

Results flagged for a closer look

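Of 19 groups of 4 or 5 Live-seq sums with unequal values, 4 had a sum that stood far from the others, where chance gives about 1 in 20 if values are spread normally, which sums of low counts with many zeros need not be. Fosb was at 9.66 CPM in the RAW_LPS biopsies of batch 7 and at 0 in the other 4 batches. Fosl1 was at 27 CPM in the RAW_Mock biopsies of batch 8_8 and at 0 to 2.91 CPM in the other 3. Egr1 was at 13.1 CPM in the RAW_LPS biopsies of batch 5Reseq, which are parental RAW264.7 cells, and at 0 to 2.80 CPM in the others. Egr2 was at 129 CPM in the RAW_Mock biopsies of batch 9_4, with all counts from 1 cell, and at 0 to 12.4 CPM in the others.

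Atf3 moved in opposite directions after adipogenic induction, with a ratio of 4.24 in scRNA-seq and 0.168 in Live-seq. The difference between the techniques was not tested.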

How the results depend on the processing

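The number of members called depended on the tool and the filter. For LPS in scRNA-seq it was 0 by edgeR, 5 by DESeq2 and 1 without the filter (Junb), beside 1.232%, 5.244% and 0.9805% of all genes. It was 2 each (Egr2 and Junb) with the edgeR 4 fit, in thinned cells and with only the states compared, beside 3.031%, 3.184% and 4.36%. For LPS in Live-seq it was 0, and 1 by DESeq2 (Fosl1). RAW_Mock against IBA in Live-seq gave 2, 3 (with Fosl1) by DESeq2 and with the edgeR 4 fit, and 0 with only the states compared. The shares of all genes were 2.266%, 11.01%, 5.409% and 1.538%. ASPC_Pre against IBA gave 2 in scRNA-seq and 3 (with Egr1) by DESeq2, without the filter, with the edgeR 4 fit and in thinned cells. It gave Egr1 and Junb with only the states compared and without batch scRNA, and 1 each with all genes kept and without the replicate block. Of all genes these settings called 11.18%, then 15.07%, 5.171%, 19.36% and 13.91%, then 5.328% and 3.238%, and 10.75% and 6.999%. In Live-seq it gave 0, 2 by DESeq2, and 1 (Atf3) without the filter, in thinned cells and without the replicate block. The shares of all genes there were 0.02229%, 2.051%, 0.0621%, 0.3371% and 0.08173%. Between techniques it was 0, and 1 without the filter in RAW_Mock (Egr1) and in IBA (Atf3), 1 by DESeq2 in IBA and in ASPC_Pre (Atf3), and for the LPS effect 1 without the filter (Egr1). Without the filter 0.07588%, 0.1794% and 0.1035% of all genes were called in RAW_Mock, in IBA and for the LPS effect. Dropping the block, dropping the filter, thinning the cells and fitting only the states compared each cost Jund its call between RAW_Mock and IBA in scRNA-seq. With the batch as a replicate block, 0 members were called between techniques.

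Leaving out 1 batch gave 4 to 6 members for RAW_Mock against IBA in scRNA-seq, 0 to 2 in Live-seq, 0 to 2 for ASPC_Pre against IBA in scRNA-seq, and 0 for LPS and between techniques. The shares of all genes were 22.18 to 33.14%, 0.09715 to 2.824%, 0.3224 to 11.33%, and at most 0.1475% for LPS and between techniques. Members whose LPS and mock sums did not overlap numbered 4 to 6 in scRNA-seq and 1 to 3 in Live-seq, and members with 1 direction in every batch 4 to 5. The shares of all genes with a batch left out were not computed for these counts. Of 130 combinations of gene, technique and state, 59 had at least 2 counts in 50% of cells, and 39 in thinned cells. The Live-seq ratio of Fosb after induction went from 1.35 to 0.496 without the cell with most counts in each group. All genes called for LPS in scRNA-seq made 1.232%, 5.244% by DESeq2 and 0.2581% without the replicate block, and 0 to 18 genes with a batch left out. In Live-seq it was 0.0%, 0.1364% in thinned cells and 4.777% by DESeq2. RAW_Mock against IBA in Live-seq gave 2.266% and 11.01% by DESeq2. ASPC_Pre against IBA gave 11.18% in scRNA-seq, 15.07% by DESeq2 and 6.999% without the replicate block, and 0.02229% and 2.051% by DESeq2 in Live-seq. Between techniques 0.0% were called, and by DESeq2 0.9588%, 1.881%, 1.04% and 0.5236% in RAW_Mock, RAW_LPS, IBA and ASPC_Pre, and 1.239% for the LPS effect. The median Live-seq LPS change over all genes was -0.48, and -0.09 by DESeq2. The causes were not tested. Low counts of Fosb, Jund and, in ASPCs, Atf3 limit their values.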

Other observations

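One parental RAW264.7 biopsy without LPS belonged to no sum and was not analysed further.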
